A study of Mus musculus with 20 samples.

Results

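The liver response to a diet without tryptophan was measured in mice carrying 1 working copy of Cse (Cth), the gene of cystathionine gamma-lyase, which makes cysteine from cystathionine, a product of methionine. 5 of the 20 liver RNA-seq libraries analysed here make up this comparison: 3 livers of Cse+/- mice on the tryptophan-free (no-Trp) diet (mice av17, av19 and av20) and 2 of Cse+/- mice on the control diet (mice av21 and av22). The libraries were chosen by diet and genotype alone, from the columns of the count table that the study's list of mice gives to these groups. The deposited labels call this genotype WT, and the 2 control livers are the only control-diet libraries analysed here, so there is no Cse-/- liver on the control diet to set beside them.

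All 5 mice were males of at least 9 weeks on a mixed 129 and C57BL/6 background. Both groups were fed a calorie-restricted control diet of defined amino acids for 3 days. The control group then stayed on it and the no-Trp group was moved to the same restricted diet with tryptophan removed and the remaining amino acids raised in proportion. Livers were taken 2 days later. Calorie restriction, the Cse+/- genotype and the defined diet are thus shared by both groups, and the groups differ in dietary tryptophan and in the raised share of the other amino acids. Each library came from a different mouse. The other libraries, used below for the estimate of spread and for direct comparisons with the no-Trp livers, were 4 Cse+/- livers on a cysteine-free (no-Cys) diet, 3 Cse-/- livers on the no-Trp diet, 4 Cse-/- livers on the no-Cys diet and 4 Cse-/- livers on the no-Trp diet with BSO, an inhibitor of glutathione synthesis.

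Tryptophan is an essential amino acid that the liver spends mainly through the kynurenine pathway, which opens with tryptophan dioxygenase (Tdo2) and leads to NAD. Lack of an amino acid is sensed through uncharged tRNA by the kinase GCN2, whose signal raises translation of ATF4, the transcription factor of the integrated stress response (ISR). The liver also adjusts its amino acid breakdown, urea cycle, glucose output and lipid synthesis to the protein it is fed.

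The 5 libraries held 14790326 to 46024996 counts, within the 11785740 to 57986121 of the whole series. Pearson correlations of log2 CPM (counts over the scaled size of each library) across genes were 0.978 to 0.986 among the no-Trp livers, 0.984 between the 2 controls and 0.977 to 0.986 between the groups, so on this measure the groups did not separate. The 7 hepatocyte markers found were measured in every liver, with albumin (Alb) at 52627, 61870 and 56543 CPM in the no-Trp livers and 83710 and 82569 CPM in the controls. The summed hepatocyte marker level was 87038 to 94837 CPM in the no-Trp livers and 117039 to 118884 CPM in the controls, a sum made up mostly of Alb, the lowest of the list (log2 fold change -0.54). Of the 7, 4 were above 0, up to Fgb, a fibrinogen chain, at 0.26, their median was 0.02 and 0 passed the test. Cth, the targeted gene, stood at 160, 155 and 88.4 CPM in the no-Trp livers and at 205 and 184 CPM in the controls, a log2 fold change of -0.53 that did not pass the test (adjusted p = 0.689, edgeR's quasi-likelihood test with Benjamini-Hochberg adjustment). In the 3 Cse-/- livers on the no-Trp diet Cth was at 10.4 to 14.4 CPM.

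Removal of tryptophan changed few transcripts past the threshold. Of 14759 genes tested, 7 passed an adjusted p of 0.05 (0.0474%). These and all edgeR calls below refer to the fit of all 20 libraries after the filter on low counts, unless another is named. A single gene rose (0.00678%), Rnf186, a ubiquitin ligase of the endoplasmic reticulum (ER), and 6 fell (0.0407%). The lower genes were Chrna4, a subunit of the nicotinic acetylcholine receptor, Etnppl, which breaks down phosphoethanolamine, Ugt1a5, a glucuronosyltransferase, Sds, the serine dehydratase that turns serine into pyruvate, Itih5, an inter-alpha-trypsin inhibitor heavy chain, and Ddc, the aromatic amino acid decarboxylase, which makes serotonin and dopamine. The middle fold change over all genes was near 0 (median log2 fold change -0.01, middle 50% between -0.18 and 0.16), with a median standard error of 0.20. At the nominal level, an unadjusted p under 0.05, 652 genes were higher (4.42%) and 719 lower (4.87%), 9.29% of all genes in either direction. All no-Trp livers lay above both controls for 1886 genes (12.8%) and below both for 2152 (14.6%).

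Chrna4 (chr2:181018380-181043546, minus strand, GRCm38) had the lowest fold change of the 7. It was read in both control livers, at 6.42 and 9.33 CPM (108 and 134 counts), and was at 0, 0.204 and 0.561 CPM (0, 9 and 12 counts) on the no-Trp diet. The groups were far apart, with 242 counts in the 2 controls against 21 in the 3 no-Trp livers (log2 fold change -4.85, SE 0.56, adjusted p = 6.06e-04, edgeR's quasi-likelihood test). For mouse av17, which had no count, the floor of 3 counts corresponds to 0.213 CPM. Outside these 2 groups the gene was read at 13.6 ± 3.17 CPM (SD, n = 4) in Cse+/- livers on the no-Cys diet, and at 0.568 ± 0.115 CPM (SD, n = 3) in Cse-/- livers on the no-Trp diet, 0.0524 ± 0.0699 CPM (SD, n = 4) in Cse-/- livers on the no-Cys diet and 0.0917 ± 0.163 CPM (SD, n = 4) in those given BSO. The high levels were thus those of the Cse+/- livers fed tryptophan.

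Sds (chr5:120476526-120483932, plus strand) stood at 141, 222 and 170 CPM in the no-Trp livers and at 378 and 496 CPM in the controls. Its means were 178 ± 41.0 CPM (SD, n = 3) and 437 ± 83.6 CPM (SD, n = 2), without overlap (log2 fold change -1.30, SE 0.22, edgeR adjusted p = 0.0287). The libraries do not mark strand, and 29.6% of the exon bases of Sds overlap genes on the other strand, so part of its reads could belong to them. Ddc (chr11:11814101-11898144, minus strand) was at 17.2, 18.1 and 11.2 CPM without tryptophan and at 32.1 and 47.1 CPM with it. Every no-Trp liver was below both controls (log2 fold change -1.35, SE 0.24, edgeR adjusted p = 0.0315).

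Etnppl (chr3:130617448-130637521, plus strand) was at 70.0, 112 and 85.6 CPM in the no-Trp livers against 351 and 256 CPM in the controls (log2 fold change -1.76, SE 0.26, edgeR adjusted p = 0.0112). Itih5 (chr2:10153571-10256529, plus strand) was at 8.67, 9.18 and 7.66 CPM against 17.8 and 18.7 CPM (log2 fold change -1.10, SE 0.19, edgeR adjusted p = 0.0315). For both genes every no-Trp liver was below both controls. Ugt1a5 (chr1:88166012-88218997, plus strand) was at 1.07, 1.68 and 1.82 CPM against 6.48 and 9.47 CPM (log2 fold change -2.34, SE 0.38, edgeR adjusted p = 0.0234). Its value is uncertain, since 59.5% of its exon bases are shared with 8 other genes of the same strand, the Ugt1a family that uses common last exons.

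Rnf186 (chr4:138967112-138968360, plus strand) was at 26.3, 19.6 and 13.0 CPM in the no-Trp livers and at 3.45 and 6.34 CPM in the controls. Its lowest no-Trp liver, mouse av20, was above the higher control (log2 fold change 2.01, SE 0.32, edgeR adjusted p = 0.0234).

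**Figure D1:**
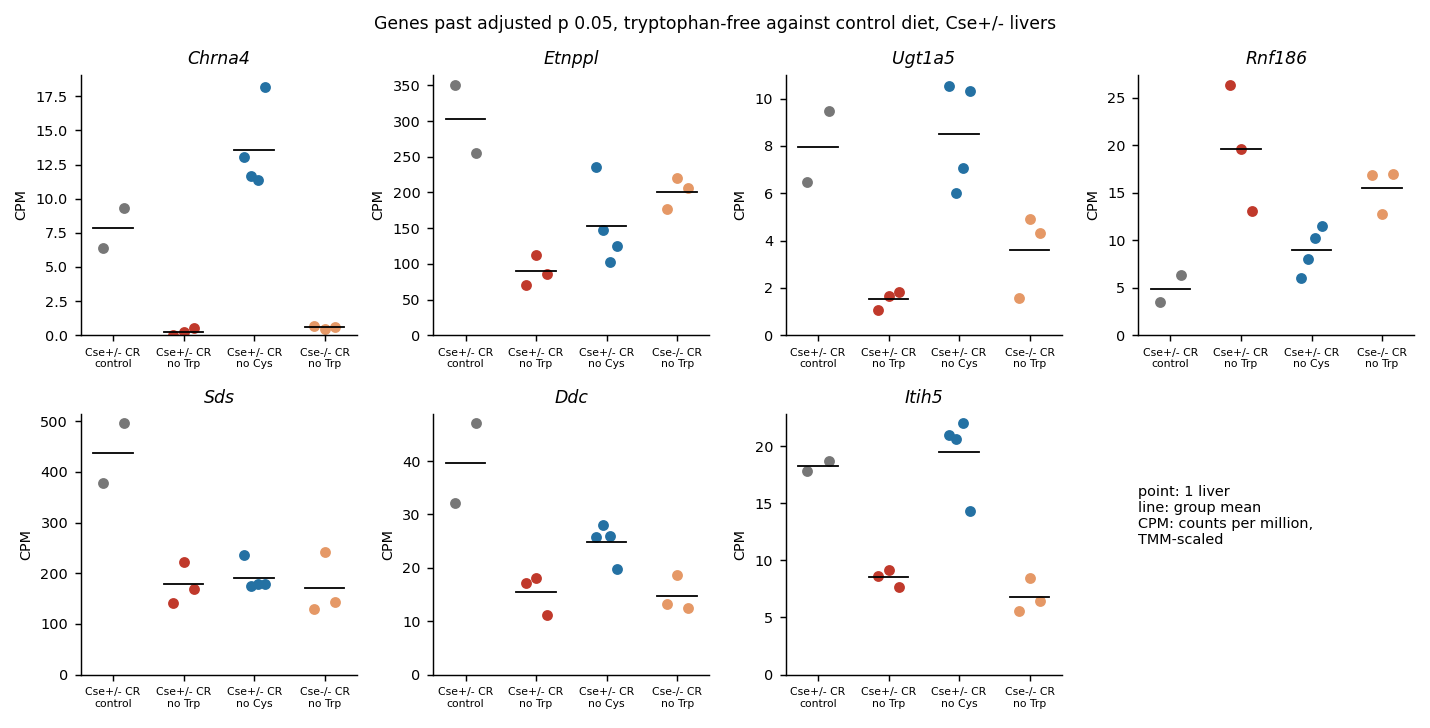
Expression of the 7 genes past the threshold, in CPM on a linear axis, for the Cse+/- livers on the control (n = 2), no-Trp (n = 3) and no-Cys (n = 4) diets and the Cse-/- livers on the no-Trp diet (n = 3). Each point is 1 liver and the lines are group means. For every gene the control and no-Trp Cse+/- livers are apart, with Rnf186 higher and the other 6 lower on the no-Trp diet.

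The calls leaned on the spread estimated over all 20 libraries. With only the 5 livers fitted, none of the 7 passed (adjusted p = 0.0801 to 0.255, edgeR) and 5 other genes did, named here after their values were seen: Mup2 (log2 fold change -6.68), a major urinary protein with near-identical copies, Cib3 (-2.76), Gm15622 (-2.07, overlapping Bhmt on the other strand) and Arl4d (-1.34) were lower, and Cyp39a1 (1.00), a bile acid enzyme, was higher. Mup2 stood at 2.13, 1.16 and 1.26 CPM in the no-Trp livers and at 160 and 135 CPM in the controls, and Cib3, a calcium-binding protein, at 0.640, 1.20 and 0.794 CPM against 5.83 and 7.03 CPM. In the fit of all libraries both missed the threshold (edgeR adjusted p = 0.255 and 0.161). With only the 3 Cse+/- groups fitted, 1 gene was higher and 4 lower, and of the 7 Chrna4 and Ugt1a5 passed, with Psat1 (log2 fold change 2.52, edgeR adjusted p = 0.0410), Nsdhl (-1.12, edgeR adjusted p = 0.0411) and Cib3 (edgeR adjusted p = 0.0411) beside them. Chrna4 was the only gene of the 7 that passed whichever liver was left out (edgeR adjusted p = 8.97e-04 to 0.0195), and without mouse av20, av17, av21 or av22 the calls numbered 2 each.

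Below the threshold, the rule for named genes added those of the smallest p in the higher direction, if their groups did not overlap. With 6 lower genes called, it added none in that direction. Slc7a4, a relative of the cationic amino acid transporters, was named as the lowest member of the transporter list. It was at 0.497, 0.952 and 0.561 CPM in the no-Trp livers and 2.50 and 2.58 CPM in the controls (log2 fold change -1.82, edgeR adjusted p = 0.0511). Among genes higher without tryptophan, Icam1, the leukocyte adhesion molecule, was at 22.9, 14.6 and 18.2 CPM against 8.63 and 7.73 CPM (1.17, edgeR adjusted p = 0.0671). Bcl3, a cofactor of NF-kappa-B, was at 77.8, 42.9 and 42.4 CPM against 19.8 and 20.3 CPM (1.43, edgeR adjusted p = 0.133). Vmp1, a membrane protein of autophagy, was at 220, 279 and 272 CPM against 168 and 150 CPM (0.69, edgeR adjusted p = 0.133). The groups of Slc7a4 were apart, and it did not pass the test. For Icam1, Bcl3 and Vmp1, groups apart and no call were conditions of the rule. The Wald test of DESeq2, run as an alternative and not as the main result, called 25 genes higher (0.169%) and 35 lower (0.237%), among them all 7 above.

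The genes that break down tryptophan and make NAD lay mostly lower on the diet that lacked tryptophan. Of 26 listed genes, 24 were tested, 22 of them had a fold change below 0, and their median log2 fold change was -0.30, beside -0.01 over all genes. Ddc was the only member past the threshold, so 1 of 24 fell, against the background of 0.0407%. At the nominal level, 7 were lower and 1 higher, beside 4.87% and 4.42% of all genes, and in 11 all no-Trp livers were below both controls, beside 14.6%. DESeq2, which called 0.237% of all genes lower, called Tdo2 lower beside Ddc. Leaving out each liver in turn kept the list's median between -0.38 and -0.18, with 4 lower genes at that level without av20 or av21 and 10 without av17.

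Tdo2, which opens the kynurenine pathway, was at 1699, 1729 and 1521 CPM in the no-Trp livers and at 2536 and 2601 CPM in the controls. The 3 no-Trp livers lay close together and below both controls, but the log2 fold change of -0.64 (SE 0.15) did not pass over all genes (edgeR adjusted p = 0.176). Acmsd, the enzyme that diverts the pathway away from NAD, was at 21.7, 15.4 and 10.7 CPM against 27.8 and 25.9 CPM (-0.77). Kyat3, a kynurenine aminotransferase, was the highest member, at 222, 250 and 249 CPM against 150 and 160 CPM (0.63).

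Further steps of the pathway had smaller fold changes. Formamidase (Afmid) had a log2 fold change of -0.52, with 44.2% of its exon bases overlapped by other genes, the aminotransferase Aadat -0.49, Haao -0.31, kynurenine monooxygenase (Kmo) -0.26 and kynureninase (Kynu) -0.18. In NAD synthesis the NAD synthetase Nadsyn1 was at -0.40 and Nampt, the salvage enzyme, at -0.30. Il4i1, an amino acid oxidase at 1.28 to 1.45 CPM against 2.14 and 2.72 CPM, is uncertain because 85.9% of its exon bases overlap genes of the other strand. Ido1, the tryptophan dioxygenase of immune cells, and Tph1, the tryptophan hydroxylase of peripheral serotonin synthesis, had no count in any of the 5 livers.

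Enzymes that degrade other amino acids and those of the urea cycle stood in the same direction. Of 43 tested genes on that list, 37 were below 0 (median log2 fold change -0.23), and Sds alone passed. DESeq2, which called 0.237% of all genes lower, also called Asl, Tat and Gldc lower. At the nominal level, 14 were lower and 0 higher, beside the 4.87% and 4.42% of all genes, and 24 had every no-Trp liver below both controls, beside 14.6%. Leaving out each liver in turn gave medians of -0.28 to -0.15 and between 9 (without av22) and 17 (without av19) lower genes at that level.

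In the urea cycle, argininosuccinate lyase (Asl) was at 573, 650 and 433 CPM in the no-Trp livers and 1030 and 1102 CPM in the controls (log2 fold change -0.95, edgeR adjusted p = 0.133). Argininosuccinate synthase (Ass1) was at 1539, 1726 and 1400 CPM against 2309 and 2526 CPM (-0.64). In both the groups were apart. Cps1, which fixes ammonia at the entry of the cycle, was at 3534, 3024 and 2030 CPM against 4056 and 4043 CPM (-0.50).

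Tyrosine aminotransferase (Tat) was at 994, 2033 and 2080 CPM without tryptophan and at 4011 and 3442 CPM with it (log2 fold change -1.13, SE 0.29, edgeR adjusted p = 0.206). Gldc, the decarboxylase of glycine cleavage, was at 49.7, 55.3 and 27.4 CPM against 96.3 and 86.3 CPM (-1.05). Histidine ammonia-lyase (Hal) was at 310, 262 and 137 CPM against 442 and 463 CPM (-0.94). Mouse av20 was the lowest liver for Gldc and Hal and mouse av17 for Tat. Betaine-homocysteine methyltransferase (Bhmt) had a log2 fold change of -1.21 and Csad, which makes taurine from cysteine, the highest of the list, 0.58.

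**Figure D2:**
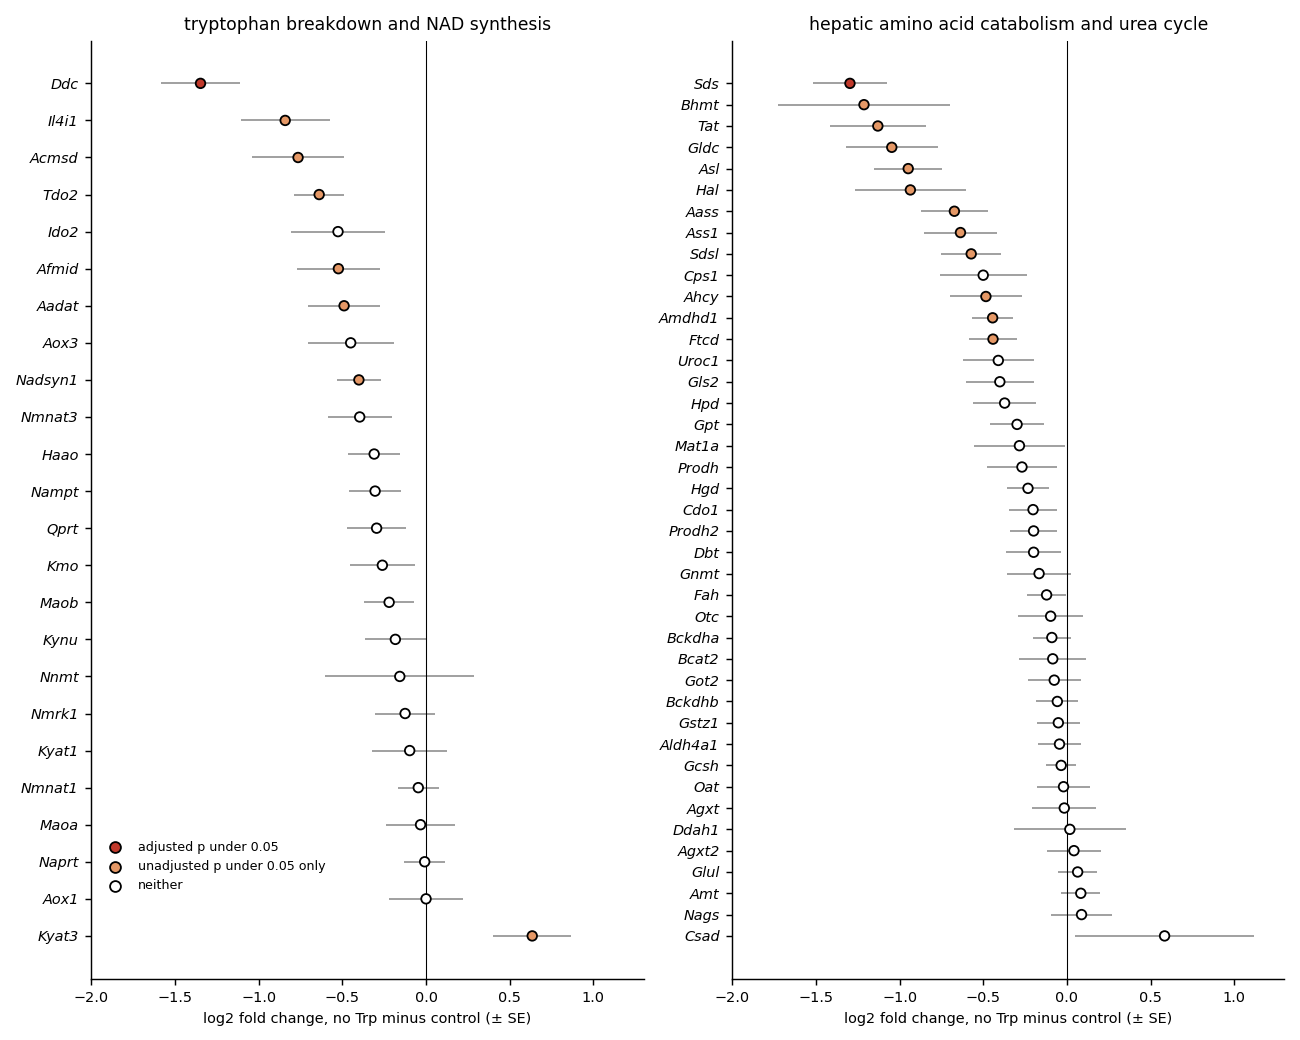
Log2 fold change, no-Trp over control diet, of the members of the lists of tryptophan breakdown and NAD synthesis (24 tested) and of amino acid catabolism and urea cycle (41 of 43 tested are drawn); error bars are the standard error of the edgeR fit and the fill marks adjusted or unadjusted p under 0.05. Most points lie below 0, and Ddc and Sds are the members past the threshold.

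Most genes of glycolysis and gluconeogenesis lay below 0. Of 27 tested, 22 were below 0 (median log2 fold change -0.19), 0 passed, and 1 was higher and 5 lower at the nominal level, beside 4.42% and 4.87% of all genes. In 11 all no-Trp livers were below both controls and in 2 above both, beside 14.6% and 12.8%. Without each liver in turn 2 (without av22) to 7 (without av19) were lower at the nominal level. DESeq2 called Ppp1r3c lower. Ppp1r3c, which brings a phosphatase to glycogen, was at 11, 19.2 and 11 CPM against 39.0 and 44.1 CPM (-1.57, edgeR adjusted p = 0.0511). Glucose-6-phosphatase (G6pc) was at 212, 519 and 259 CPM against 744 and 1114 CPM (-1.49), and Pck1, the rate-limiting step of gluconeogenesis, at 3759, 5450 and 4903 CPM against 6865 and 7046 CPM (-0.56). For all 3 the groups were apart.

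The study also asked about the ISR, and named 14 ISR genes. None passed the threshold by edgeR after the filter on low counts, 13 were above 0 and their median log2 fold change was 0.36, with 2 higher and 0 lower at the nominal level, beside 4.42% and 4.87% of all genes, and 5 with all no-Trp livers above both controls, beside 12.8%. Leaving out each liver gave medians of 0.21 (without av22) to 0.52. This list was chosen by the study on these samples and gives no independent evidence of its direction. Psat1, of serine synthesis, was the highest at 2.35, 2.63 and 2.76 CPM in the no-Trp livers against 0.476 and 0.418 CPM in the controls. The groups were apart, and the log2 fold change of 2.52 had an SE of 0.70 with all libraries fitted (edgeR adjusted p = 0.255) and an SE of 0.32 with only the 3 Cse+/- groups (edgeR adjusted p = 0.0410). DESeq2 called Psat1, alone of the 14, higher, and edgeR called it without the filter (adjusted p = 0.0123). The amino acid response element TGATGNAA, searched on both strands in the 250 bases before the start, was in 4 of the 13 members with a promoter entry (Asns, Chac1, Fgf21 and Pycr1), beside 3.91% of all genes with an entry. The list's score, the mean log2 CPM of its members relative to the controls, was 0.44 in mouse av17, 0.52 in av19 and 0.71 in av20.

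The other ISR genes had smaller fold changes. Trib3, a feedback inhibitor of the pathway, was at 6.96, 7.34 and 8.59 CPM against 9.22 and 5.57 CPM (log2 fold change 0.04, SE 0.28), with the controls on both sides of the no-Trp livers. Chac1, which degrades glutathione, was at 14.2, 13.0 and 10.6 CPM against 12.5 and 16.2 CPM (-0.18, SE 0.54). Asparagine synthetase (Asns) was at 2.91, 2.67 and 3.55 CPM against 1.31 and 1.81 CPM (0.96, SE 0.84), and the transcription factor Atf5 at 290, 284 and 452 CPM against 185 and 237 CPM (0.70, SE 0.30). The hormones Fgf21 (0.79, SE 1.08) and Gdf15 (0.63, SE 0.77) overlapped between the groups. The sign changed for Trib3 without av20 or av22, for Gdf15 without av21, and for Chac1, Pycr1, Slc1a4 and Slc7a1 without av22.

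A wider set of ATF4 targets gave a median log2 fold change of 0.11 over 32 tested genes, with 2 higher and 3 lower at the nominal level, beside 4.42% and 4.87% of all genes, and none past the threshold. The sign of this median was not stable: leaving out each liver gave -0.03 (without av21) to 0.16, with -0.02 without av20. DESeq2, which called 0.237% of all genes lower, called 2 of them lower. These were the transaminases Gpt2 (601, 541 and 471 CPM against 746 and 835 CPM) and Got1 (761, 580 and 604 CPM against 1086 and 1472 CPM). The ends of the set were Aldh1l2, a mitochondrial folate enzyme, at 2.05 (1.14, 1.43 and 0.981 CPM against 0.416 and 0.139 CPM), and Ddit4, an inhibitor of mTORC1, at -1.22 (5.97, 19.3 and 21.3 CPM against 38.4 and 35.4 CPM). The 20 cytosolic aminoacyl-tRNA synthetases had a median of -0.06. Wars, the enzyme that charges tryptophan, was the highest of them at 26.4, 17.2 and 14.0 CPM against 15.2 and 13.7 CPM (0.40). Its lowest no-Trp liver was below the higher control.

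Of 25 amino acid transporters tested, 14 were above 0 and 11 below. None passed by edgeR, 3 were higher and 5 lower at the nominal level, beside 4.42% and 4.87% of all genes, and DESeq2, which called 0.237% of all genes lower, called Slc7a2 and Slc7a4 lower. Without each liver in turn the counts were 1 to 4 higher and 2 to 5 lower. Slc7a2, a carrier of cationic amino acids, was at 537, 541 and 642 CPM in the no-Trp livers and 941 and 1049 CPM in the controls (log2 fold change -0.80, edgeR adjusted p = 0.186). Slc1a5, a glutamine carrier, was at 8.81, 8.04 and 9.72 CPM against 5.53 and 4.59 CPM (0.80), and Slc16a10, which carries aromatic amino acids including tryptophan, at 173, 151 and 166 CPM against 137 and 117 CPM (0.36). The groups were apart for each of these 3 carriers.

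The 8 genes of the oxidative stress response (OSR) the study names, mainly glutathione transferases under NRF2, tended to the lower side: 7 of 8 were below 0, the median log2 fold change was -0.32, and 0 passed. Gstm2 was at 25.7, 23.1 and 25.6 CPM in the no-Trp livers against 36.6 and 40.2 CPM in the controls (-0.63), and Gsta1 was at 0.284, 0.204 and 0.420 CPM against 1.25 and 0.835 CPM (-1.86). The other direction was seen in some further NRF2 targets. Haem oxygenase (Hmox1) was at 30.8, 17.4 and 23.3 CPM against 11.7 and 11 CPM (1.06, edgeR adjusted p = 0.133) and Osgin1 at 247, 154 and 93.6 CPM against 68.2 and 63.8 CPM (1.32). Over the 24 further targets tested the median was 0.07, with 4 higher and 1 lower at the nominal level, beside the same shares of all genes as above. The antioxidant response element TGACNNNGC was in 0 of the 8 OSR promoters and in 7 of 20 of the further targets, beside 11.5% of all genes with an entry. DESeq2 called Hmox1 higher and 0 of the 8 OSR genes, of which 2 were lower and 0 higher at the nominal level by edgeR, beside 4.87% and 4.42% of all genes. Without mouse av19 this count was 0 lower and 1 higher, and without av21 or av22 1 lower and 0 higher.

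**Figure D3:**
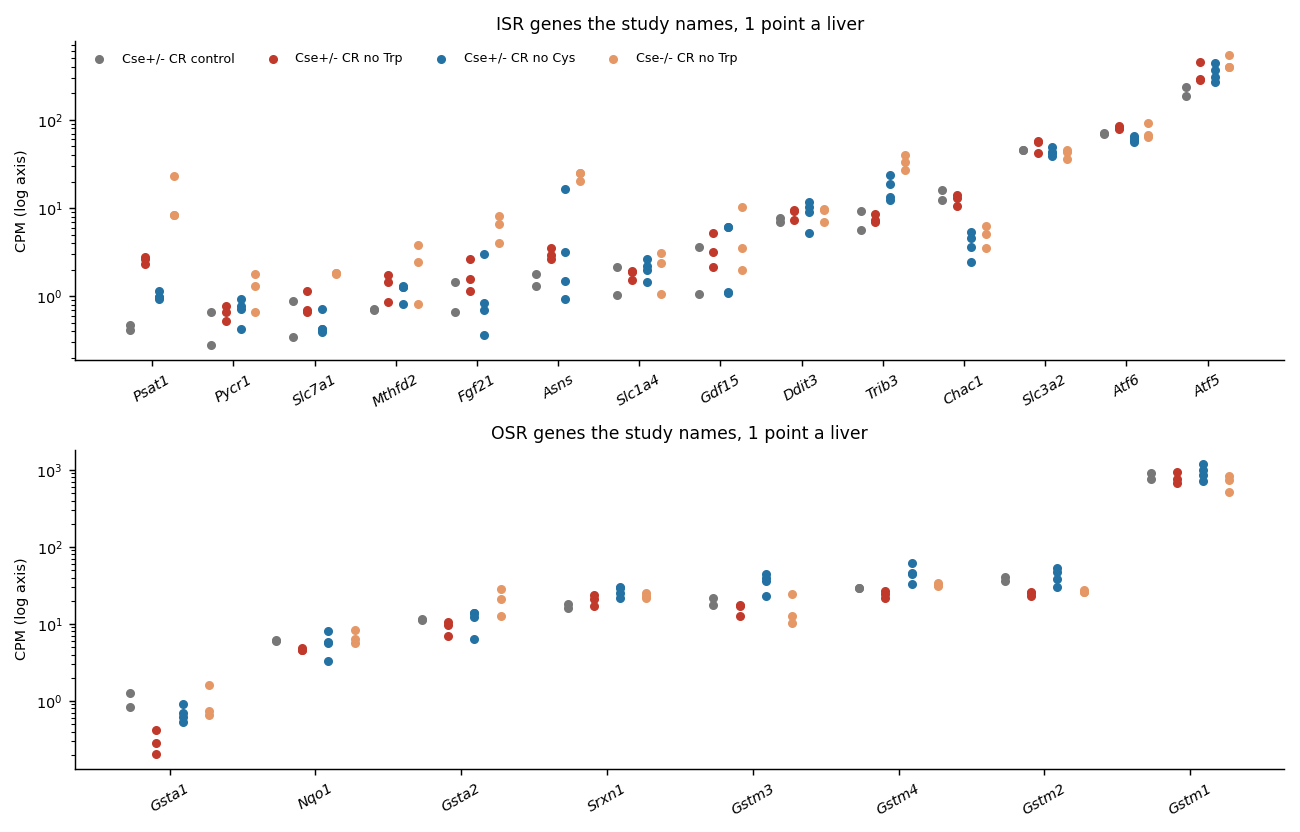
Expression in CPM (log axis) of the 14 ISR and 8 OSR genes named by the study in each Cse+/- liver on the control, no-Trp or no-Cys diet and each Cse-/- liver on the no-Trp diet; each point is 1 liver. Between control and no-Trp Cse+/- livers Psat1 is apart (0.418 and 0.476 CPM against 2.35 to 2.76 CPM), while Trib3 and Chac1 overlap.

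Chaperones of the ER stood higher on the no-Trp diet as a group. Of 25 tested genes of the unfolded protein response, 23 were above 0 with a median log2 fold change of 0.49, beside -0.01 over all genes. None passed the threshold, 15 were higher and 1 lower at the nominal level, beside 4.42% and 4.87% of all genes, and 17 had every no-Trp liver above both controls, beside 12.8%. The promoters of the list were searched for the element named after it. The list holds known genes of this response, so the share of members with the element says nothing about these livers. The ER stress element, CCAAT and CCACG with 9 bases of any kind between them, is bound by ATF6 with NF-Y. It was searched on both strands in the 250 bases before the RefSeq start of each gene, and was present in 9 of the 22 members with a promoter entry (Calr, Canx, Creld2, Derl3, Dnajc3, Hsp90b1, Hspa5, Pdia6 and Syvn1), beside 35 of the 27025 genes with an entry (0.13%). Shown are 3 of the 9 with groups that did not overlap, chosen after their values were seen, from RefSeq on GRCm38.p6, in the sense of the gene with the element in capitals:
Calr, chr8:84846932-84847181, - strand: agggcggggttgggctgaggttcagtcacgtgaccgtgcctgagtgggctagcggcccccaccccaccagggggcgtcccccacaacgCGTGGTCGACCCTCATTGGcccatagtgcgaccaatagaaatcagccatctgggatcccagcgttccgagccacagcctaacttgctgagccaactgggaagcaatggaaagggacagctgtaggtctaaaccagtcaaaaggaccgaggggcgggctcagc
Creld2, chr15:88819396-88819645, + strand: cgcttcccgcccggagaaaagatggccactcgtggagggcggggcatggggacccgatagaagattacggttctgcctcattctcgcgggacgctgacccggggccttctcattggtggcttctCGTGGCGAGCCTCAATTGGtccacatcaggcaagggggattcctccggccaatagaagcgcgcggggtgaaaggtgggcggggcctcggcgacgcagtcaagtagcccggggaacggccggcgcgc
Derl3, chr10:75893148-75893397, + strand: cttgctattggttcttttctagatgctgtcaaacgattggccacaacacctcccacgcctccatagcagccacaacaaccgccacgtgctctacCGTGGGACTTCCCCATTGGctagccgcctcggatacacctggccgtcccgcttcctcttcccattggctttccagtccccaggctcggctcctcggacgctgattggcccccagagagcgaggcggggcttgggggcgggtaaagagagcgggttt

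Calreticulin (Calr), the calcium-binding chaperone, was at 1237, 1073 and 865 CPM in the no-Trp livers and at 618 and 576 CPM in the controls. All 3 livers were above both controls (log2 fold change 0.83, SE 0.20, edgeR adjusted p = 0.186). DESeq2 called it higher, and no other gene of the list. Creld2, an ER stress protein, was at 277, 106 and 94.7 CPM against 67.0 and 67.1 CPM (1.24), and Derl3, of ER-associated degradation, was at 19.1, 9.29 and 1.96 CPM against 1.07 and 1.74 CPM (2.83). In both the highest value was that of mouse av17. Sdf2l1, a partner of Hspa5, was at 73.3, 32.9 and 26.1 CPM against 18.4 and 15.5 CPM (1.37), and Xbp1, the transcription factor spliced by IRE1, at 512, 243 and 235 CPM against 174 and 219 CPM (0.75). Pdia4, a disulfide isomerase, was at 298, 169 and 143 CPM against 121 and 120 CPM (0.75). Hspa5 (BiP), the main ER chaperone, was at 1370, 808 and 651 CPM against 655 and 627 CPM (0.56), so that mouse av20 lay within the range of the controls.

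The level of the whole list followed the same order of livers. Its score was 0.92 in mouse av17, 0.43 in av19 and 0.21 in av20. Without mouse av17 the median log2 fold change was 0.30 and 3 genes were higher and 1 lower at the nominal level, without av22 5 and 0, without av21 10 and 1, and without av20 18 and 0. Mouse av17 also carried transcripts of fat cells: Cfd (adipsin) was at 26.3 CPM there and at 0 to 0.544 CPM in the other 4 livers, Adipoq at 2.91 CPM and at 0 to 0.0696 CPM, and Lep at 0 in all. The summed level of the 6 adipocyte markers was 47.4 to 68.0 CPM in the no-Trp livers and 38.2 to 41.6 CPM in the controls. Their part in the result was not tested.

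**Figure D4:**
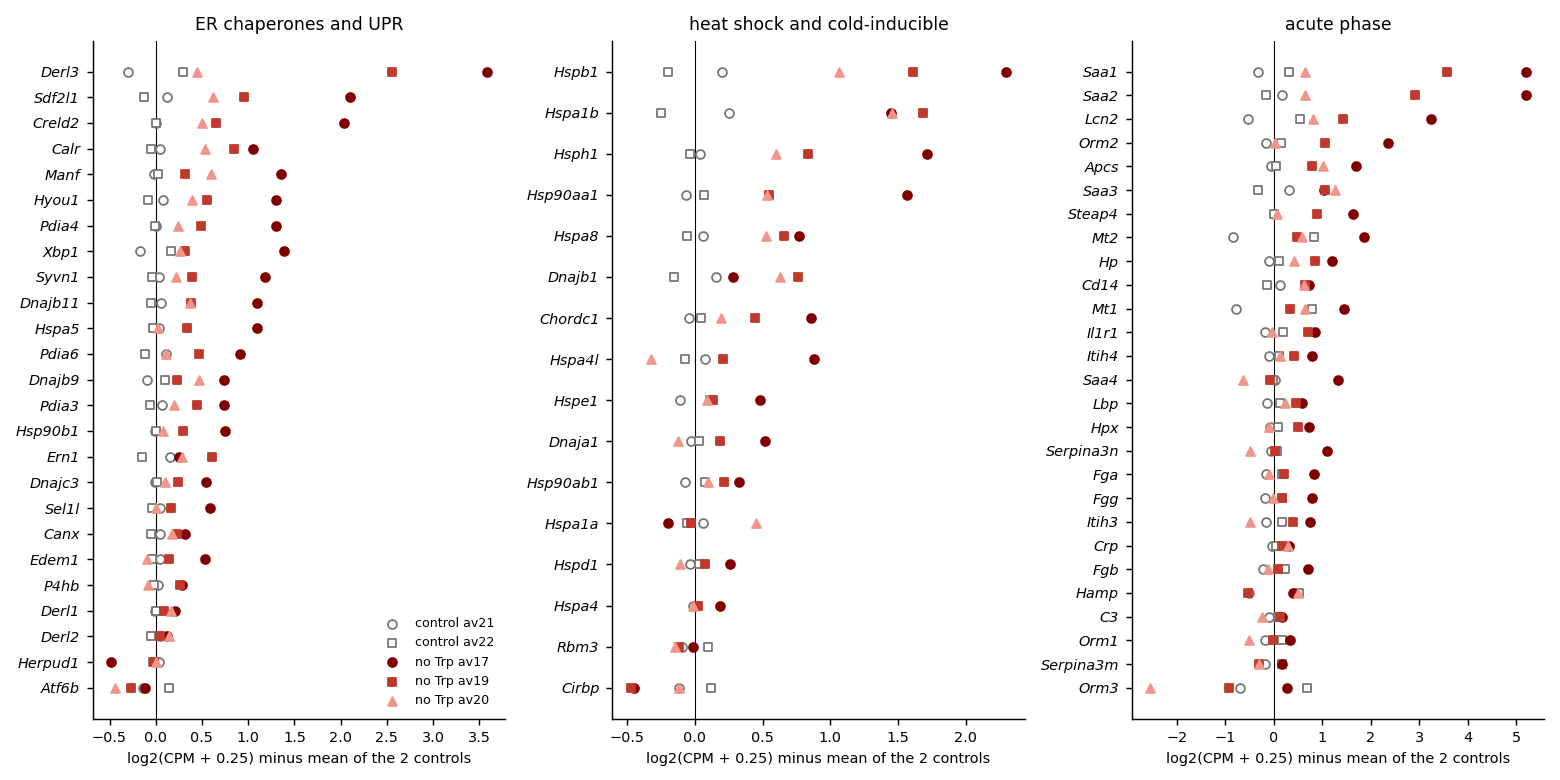
Expression of the members of the ER chaperone, heat shock and acute phase lists in each of the 5 Cse+/- livers, as log2 of CPM plus a pseudocount of 0.25, minus the mean of the 2 controls; each point is 1 gene in 1 liver. Mouse av17 lies furthest to the right for most ER chaperones, as Creld2 (277 CPM there against 67.0 and 67.1 CPM in the controls).

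Heat shock genes lay mostly in the same direction, on a list that also holds the mitochondrial chaperones Hspd1 and Hspe1 and the cold-inducible Cirbp and Rbm3. Of 16 tested, 14 were above 0 (median log2 fold change 0.28, lowest Cirbp at -0.34), 0 passed, and 7 were higher and 0 lower at the nominal level, beside 4.42% and 4.87% of all genes. Hspb1, a small heat shock protein, was at 43.9, 27.1 and 18.5 CPM in the no-Trp livers and 10.1 and 7.59 CPM in the controls (log2 fold change 1.75, SE 0.37, edgeR adjusted p = 0.133). Hspa8, the constitutive Hsp70, was at 720, 666 and 608 CPM against 440 and 406 CPM (0.65). Hsp90aa1, the inducible Hsp90, was at 253, 124 and 123 CPM against 81.0 and 89.3 CPM (0.97), and the inducible Hsp70 gene Hspa1b at 7.82, 9.24 and 7.85 CPM against 3.27 and 2.23 CPM (1.59). Without mouse av17, 6 heat shock genes were higher at that level, and without av22 4. DESeq2, which called 0.169% of all genes higher, called Hspb1 and Hsph1 higher. The heat shock element (GAA, TTC and GAA, each 2 bases apart) was found for 2 of 12 members with a promoter entry, Hspd1 and Hspe1, beside 0.514% of all genes with an entry. Both lie head to head, and their windows (chr1:55087933-55088182, minus strand, and chr1:55087898-55088147, plus strand) are nearly the same stretch, so the matches are the same ones read from either strand. The list's score was 0.68 in av17, 0.43 in av19 and 0.31 in av20.

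Acute phase genes, which the liver makes in response to inflammatory cytokines, had a median log2 fold change of 0.45 over 27 tested, with 24 above 0, 0 past the threshold, and 7 higher and 0 lower at the nominal level, beside 4.42% and 4.87% of all genes. Serum amyloid Saa1 was at 1429, 465 and 61.1 CPM in the no-Trp livers and at 31.1 and 48.5 CPM in the controls, and Saa2 at 550, 113 and 23.1 CPM against 16.6 and 13.2 CPM. Every no-Trp liver was above both controls, yet the no-Trp livers themselves spanned a far wider range than the gap to the controls, and the log2 fold changes of 4.03 (SE 1.49) and 3.93 (SE 1.61) did not pass. Haptoglobin (Hp) was at 7358, 5735 and 4262 CPM against 2981 and 3428 CPM (0.85). The list's score was 1.33 in mouse av17, 0.57 in av19 and 0.08 in av20, and without av17 or av21 2 genes were higher at the nominal level, without av22 3. DESeq2 called 0 of the 27.

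Markers of resident macrophages also stood above the controls. Of 10 Kupffer cell and macrophage markers tested, 9 were above 0, 0 passed by edgeR, 6 were higher at the nominal level, beside 4.42% of all genes, and 8 had every no-Trp liver above both controls, beside 12.8%. The list's median log2 fold change was 0.38. Their summed level was 404 to 492 CPM in the no-Trp livers and 319 to 354 CPM in the controls, with the scavenger receptor Marco at 8.10, 8.47 and 19.2 CPM against 2.97 and 2.72 CPM (2.06, edgeR adjusted p = 0.244), Clec4f at 109, 100 and 121 CPM against 81.7 and 97.8 CPM, and Adgre1 (F4/80) overlapping. The 6 neutrophil markers summed to 4.40 to 6.61 CPM against 2.30 to 2.74 CPM, with Ly6g at 0 in the no-Trp livers. In whole liver, more or fewer cells of a type and more or less RNA per cell cannot be told apart, and the part of these markers in the acute phase result was not tested.

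Cholesterol synthesis genes stood lower on the no-Trp diet. Of 20 tested, 19 were below 0 (median log2 fold change -0.44), 0 passed, 8 were lower and 0 higher at the nominal level, beside 4.87% and 4.42% of all genes, and 12 had every no-Trp liver below both controls, beside 14.6%. Mevalonate kinase (Mvk) was at 8.03, 9.67 and 7.89 CPM in the no-Trp livers and 18 and 13.4 CPM in the controls (-0.87, edgeR adjusted p = 0.158). Phosphomevalonate kinase (Pmvk) was at 13.1, 17.4 and 29.7 CPM against 40.3 and 40.0 CPM (-1.0), and Nsdhl, which acts in the removal of sterol methyl groups, at 12, 13.8 and 16.7 CPM against 34.3 and 28.3 CPM (-1.14). Dhcr7, the last step to cholesterol, was at 22.0, 24.3 and 22.7 CPM against 43.7 and 35.6 CPM (-0.78). In each the groups were apart, while squalene synthase (Fdft1) was at a log2 fold change of 0.00. Leaving out each liver in turn gave a median of -0.58 to -0.29 and between 4 (without av21) and 6 lower genes at that level, 5 without av17. Nsdhl passed with only the 3 Cse+/- groups fitted (edgeR adjusted p = 0.0411), and DESeq2 called Mvk lower. The sterol response element, ATCAC followed directly by CCCAC, was in 0 of 15 promoters of the list and in 0 of 17 of fatty acid synthesis, beside 0.0814% of all genes with an entry.

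Genes of fatty acid synthesis had a median log2 fold change of -0.33 over 20 tested, with 3 lower and 0 higher at the nominal level, beside 4.87% and 4.42% of all genes, and none past the threshold by edgeR after the filter or by DESeq2. Without av21 the median was -0.13, and without each of the other livers it was -0.34 to -0.24. Scd1, the desaturase that makes oleate, was at 508, 1404 and 1680 CPM in the no-Trp livers and at 4995 and 6750 CPM in the controls. Fatty acid synthase (Fasn), in contrast, overlapped at 79.4, 92.5 and 71.3 CPM against 87.0 and 77.4 CPM (-0.02). For Scd1 the groups were apart, but the log2 fold change of -2.29 had an SE of 0.75 (edgeR adjusted p = 0.328, and 0.0272 without the filter). Cyp8b1, the sterol hydroxylase of cholic acid synthesis, was at 126, 37.3 and 47.5 CPM against 391 and 218 CPM (-2.12). The 37 genes of fatty acid oxidation and ketogenesis had a median of 0.08, with 1 gene at the nominal level in each direction: the coactivator Ppargc1a was at 10.2, 13.4 and 14.7 CPM against 30.5 and 29.2 CPM (-1.22).

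The remaining lists, of 19 to 29 tested genes each, had median log2 fold changes between -0.15 and 0.03 and counts at the nominal level of at most 3 in a direction, beside 4.42% of all genes higher and 4.87% lower. Of the circadian clock, the activator Arntl was at 1.14, 2.13 and 0.374 CPM against 2.97 and 3.13 CPM (-1.24) and the repressor Nr1d1 at 25.7, 29.0 and 29.2 CPM against 15.6 and 16.6 CPM (0.80). Both sets were apart, and neither gene passed. Among cell cycle genes, cyclin E1 (Ccne1) was at 4.62, 6.30 and 9.48 CPM against 2.08 and 3.13 CPM (1.40, called higher by DESeq2 and by edgeR without the filter) and survivin (Birc5) at 1.28, 1.18 and 0.327 CPM against 2.62 and 2.51 CPM (-1.45). Gadd45a, a stress gene on the list of mTORC1 and amino acid sensing, was at 9.52, 3.26 and 3.36 CPM against 1.78 and 1.88 CPM (1.49), highest in mouse av17.

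**Figure D5:**
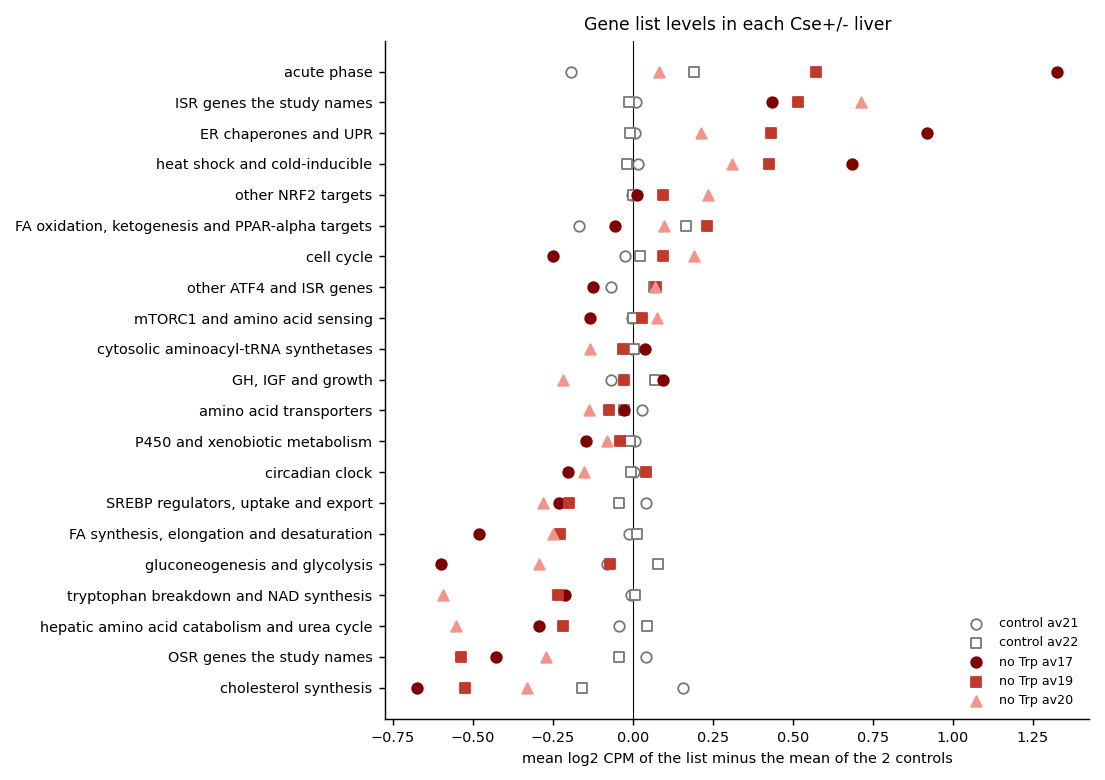
Score of each gene list in each of the 5 Cse+/- livers, the mean log2 CPM of its tested members relative to the control mean; each point is 1 liver. The 3 no-Trp livers are above both controls for ISR genes, ER chaperones and heat shock genes and below both for amino acid breakdown and cholesterol synthesis, while for the acute phase mouse av20 (0.08) lies between the controls.

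The same 3 no-Trp livers were also compared directly with livers of other groups, and these comparisons share those livers with the one above. Against the 4 Cse+/- livers on the no-Cys diet, 503 genes were higher (3.41%) and 683 lower (4.63%) without tryptophan. Of the 7 genes, Chrna4 was lower than without cysteine, where it stood at 13.6 ± 3.17 CPM (SD, n = 4) against 0.255 ± 0.284 CPM (SD, n = 3; log2 difference -5.64, edgeR adjusted p = 1.60e-05). Itih5 (-1.19, edgeR adjusted p = 5.22e-04), Ugt1a5 (-2.43, edgeR adjusted p = 5.22e-04), Etnppl (-0.77, edgeR adjusted p = 0.0399) and Ddc (-0.68, edgeR adjusted p = 0.0487) were lower too, and Rnf186 was higher (1.12, edgeR adjusted p = 0.00903). Sds, at 191 ± 29.5 CPM (SD, n = 4) without cysteine and 178 CPM without tryptophan, was not told apart (log2 difference -0.11, edgeR adjusted p = 0.770).

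In the same comparison, 14 of the 20 cholesterol synthesis genes were lower without tryptophan than without cysteine, beside 4.63% of all genes. Lower too were 2 of the 8 OSR genes, Gstm2 (log2 difference -0.78) and Gstm4 (-0.92). Of the 25 ER chaperones tested 5 were higher, beside 3.41% of all genes. Of 19 circadian clock genes 3 were higher and 7 lower, beside 3.41% and 4.63% of all genes. Arntl was at 1.21 ± 0.881 CPM (SD, n = 3) without tryptophan and 0.432 ± 0.146 CPM (SD, n = 4) without cysteine (log2 difference 1.59, edgeR adjusted p = 0.0457). Nr1d1 was at 25.7 to 29.2 CPM and 81.4 ± 10.7 CPM (-1.54, edgeR adjusted p = 3.69e-04). The part of this clock difference in the values of this comparison was not tested. Trib3 was lower (-1.16, edgeR adjusted p = 0.00563) while Chac1 (1.65, edgeR adjusted p = 0.0415) and the ER stress sensor Atf6 (0.44, edgeR adjusted p = 0.0286) were higher. In the tryptophan list, Nampt was higher (0.63, edgeR adjusted p = 0.00717), and Nadsyn1 (-0.59, edgeR adjusted p = 0.00430), Nmnat3 (-0.74, edgeR adjusted p = 0.00929) and Ddc were lower.

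Between genotypes on the no-Trp diet, 206 genes were higher (1.4%) and 183 lower (1.24%) in the 3 Cse-/- livers than in the 3 Cse+/- livers. Etnppl was the only gene of the 7 that differed, at 201 ± 21.8 CPM in Cse-/- and 89.3 ± 21.4 CPM in Cse+/- livers (SD, n = 3 each; log2 difference 1.17, edgeR adjusted p = 0.0140). The ISR genes Trib3 (2.12, edgeR adjusted p = 9.49e-05), Psat1 (2.33, edgeR adjusted p = 0.00345) and Asns (2.96, edgeR adjusted p = 0.0107) were higher in the Cse-/- livers, and 4 cholesterol synthesis genes were higher. Of the 24 genes of tryptophan breakdown and NAD synthesis, 0 passed the threshold between the genotypes by edgeR, 2 were higher and 0 lower at the nominal level (10.2% and 8.16% of all genes), and DESeq2, which called 2.87% of all genes higher, called 1 of them higher, Maob, a monoamine oxidase.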

How the data were processed

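Livers of Cse+/- mice on the no-Trp (n = 3) and control (n = 2) diets were compared. The deposited values are raw read counts per gene: the authors made poly(A) libraries with a kit that does not mark strand, sequenced read pairs, aligned them with HISAT2 2.1.0 to GRCm38 and counted with HTSeq 0.11.0, per the submitters' processing notes. Which annotation release served for counting was not stated in those notes or the methods. Columns are named by mouse and were given to groups from the study's list of mice. 20 of 21 columns were used, and 1 column without a listed condition was not. Symbols were given for 45143 of 46078 genes, and gene positions come from GENCODE M21 on GRCm38.

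Genes were filtered with filterByExpr (minimum count 10, minimum total count 15), scaled by TMM and tested with edgeR 4.0.16 (limma 3.58.1, R 4.3.3). The quasi-likelihood F test was fitted to all 20 libraries with 1 mean for each of 6 groups (14 residual degrees of freedom, common dispersion 0.0270), was two-sided, and used the Benjamini-Hochberg adjustment over 14759 genes at 0.05. CPM values are relative to the TMM-scaled library size. List scores used a prior count of 2. All comparisons that use the no-Trp livers share them, and the spread is that between livers of different mice.

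The members, gene lists and tests were chosen with earlier results of these data known. Named were the ISR and OSR genes of the study, the tryptophan list, up to 12 called genes a direction with a mean of at least 1 CPM and groups that do not overlap (filled to 6 by smallest p), of each other list the called members (up to 8) and the highest and lowest, and Cth. Other genes of a list given with values were chosen after their values were seen.

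As alternatives, DESeq2 1.42.0 (Wald test) was run, and edgeR with scaling by RLE or by the upper quartile, no filter, a mean CPM of at least 1, only the groups compared, only the 3 Cse+/- groups, an adjusted p of 0.01, thinning to the shallowest library, and leaving out each liver. Counts were also simulated for all 20 libraries over 14759 genes, from each gene's mean over all libraries and its fitted dispersion. Only genes with a mean of at least 1 CPM were changed, and only in the no-Trp group. On these counts the test recovered 73 of 100 genes changed 2-fold and 94 of 100 changed 4-fold, with 4 false calls. The real livers can vary in ways that this model leaves out, so these shares are not the power for real changes. Promoter motifs were searched on both strands in 250 bases before RefSeq starts, with Python 3.11.15, pandas 2.3.3 and numpy 2.4.6. Figures were drawn with matplotlib 3.10.9. A few members of the lists are counted in them but are not reported here by name.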

Additional observations from a re-analysis of the deposited data

Results flagged for a closer look

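Sds, which fell on the no-Trp diet, had a liver that stood apart in a group used for the direct comparison. Among the 4 Cse+/- livers on the no-Cys diet, mouse av01 was at 236 CPM and the remaining 3 at 174 to 178 CPM, a gap of 0.942 of the group's range and more than Dixon's critical value for 4 samples. Chrna4, in the 4 Cse-/- livers on the no-Trp diet with BSO, was at 0.335 CPM in mouse av10 and at 0 to 0.0320 CPM in the remaining 3, a gap of 0.904 of the range. In all, 11 sets of 4 values were examined in this way, and chance alone marks about 1 in 20 such sets. The no-Trp and control groups, with 3 and 2 livers, are too small for this check.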

How the results depend on the processing

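Of 113 named genes, the 7 called ones passed with DESeq2 and without the filter, 2 passed with only the 3 Cse+/- groups fitted, where the calls were 1 higher and 4 lower, and none passed with only the 5 livers fitted. Without the filter Bcl3, Ccne1, Cyp8b1, Hmox1, Hspb1, Icam1, Marco, Nsdhl, Osgin1, Ppargc1a, Ppp1r3c, Psat1, Scd1, Slc7a4 and Vmp1 passed too. Genes higher and lower against the control diet numbered 25 and 35 with DESeq2, 31 and 40 without the filter and 0 and 1 at an adjusted p of 0.01, and 0 to 3 and 1 to 6 when each liver was left out. Against the no-Cys diet they numbered 241 and 303 with only those groups fitted, 137 and 192 at 0.01, 450 lower after thinning, and 257 to 623 and 332 to 706 without each liver. For Cse-/- against Cse+/- without tryptophan they numbered 424 and 299 with DESeq2, 276 lower without the filter, 34 and 41 with only those groups, 31 and 41 at 0.01, 97 and 114 after thinning, and 50 to 278 and 51 to 177 without each liver. The cause of these differences was not tested, except that a stricter threshold calls fewer genes.

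Signs changed for some genes, and not only for those near 0. Naprt was at 0.0018 with upper-quartile factors, 0.0071 without the filter, 0.0064 with either smaller set of groups and 0.038 after thinning. Plin4 was at 0.010, 0.016, 0.017 and 0.014 in the first 4 of these and at 0.0064 with a mean CPM of at least 1. After thinning, Adgre1 was at 0.046, Aox1 at -0.059, Mylpf at -0.25 and Nmnat1 at 0.018. Leaving out each liver gave ranges across 0 for Adgre1 (-0.21 to 0.18), Aox1 (-0.080 to 0.11), Cela1 (-0.057 to 0.56), Chac1 (-0.35 to 0.017), Cldn7 (-0.068 to 0.50), Cyp2a4 (-0.12 to 1.3), Fdft1 (-0.17 to 0.16), Fgb (-0.019 to 0.50), Gdf15 (-0.014 to 1.7), Gstm1 (-0.19 to 0.068), Hba-a2 (-0.67 to 0.63), Hbb-bs (-0.93 to 0.32), Kyat1 (-0.21 to 0.044), Maoa (-0.22 to 0.12), Mup1 (-0.16 to 2.3), Naprt (-0.054 to 0.054), Nmnat1 (-0.14 to 0.071), Nmrk1 (-0.34 to 0.15), Nnmt (-0.79 to 0.16), Plin4 (-0.41 to 0.46), Pycr1 (-0.056 to 1.2), Slc1a4 (-0.25 to 0.78), Slc7a1 (-0.16 to 1.2) and Trib3 (-0.27 to 0.47).

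No paired analysis was possible because the columns carry no replicate numbers. With 1 control left, its spread is taken to be that of the other groups.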

Other observations

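Of 27 tested genes of growth hormone and IGF signalling, 0 passed by edgeR, 1 gene in each direction had an unadjusted p under 0.05, beside 4.42% of all genes higher and 4.87% lower, and DESeq2, which called 0.169% of all genes higher, called 1 higher. That gene was Socs3, the cytokine-induced inhibitor of JAK and STAT signalling, at 35.9, 20.9 and 17.8 CPM in the no-Trp livers and 7.73 and 10.7 CPM in the controls (log2 fold change 1.43, SE 0.31, edgeR adjusted p = 0.155). Igf1, the main hepatic target of growth hormone, was at 787, 815 and 854 CPM against 854 and 1097 CPM (-0.25). Socs2, another target, was at 128, 103 and 110 CPM in the no-Trp livers, between the 32.3 and 170 CPM of the controls.

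Cpt1a, which admits fatty acids to mitochondria, was at 683, 558 and 450 CPM against 661 and 761 CPM (-0.34, SE 0.22).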
